A study of Mus musculus with 12 samples.

Results

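The mitochondrial ribosomal protein genes were described across 4 sorted populations of mouse blood progenitors. Members were all genes whose single annotated symbol starts with Mrpl or Mrps and a digit, which gave 76 of the 18193 genes on the array. Symbols with Mrpl name proteins of the large subunit of the mitochondrial ribosome, and most with Mrps name proteins of the small subunit. By structure, 49 members belong to the large subunit, among them Mrps30 and Mrps18a in spite of their names, and 26 to the small subunit. The remaining one, Mrps36, encodes a subunit of the mitochondrial alpha-ketoglutarate dehydrogenase complex that kept its ribosomal symbol.

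The 12 arrays held 3 each of CD27+ common myeloid progenitors (CMP), CD27- CMP, granulocyte-monocyte progenitors (GMP) and megakaryocyte-erythrocyte progenitors (MEP). Bone marrow of female C57BL/6 mice gave all 4 populations; the mice were aged 4 to 6 weeks. The cells were lineage-negative, with CD117 and without Sca-1, and the labels name no treatment or transgene. Both CMP fractions were sorted with CD34 and without CD16/32 and differed in CD27, which belongs to the TNF receptor superfamily. GMP carried CD34, CD16/32 and CD27, and MEP carried none of them. The labels name biological replicates and leave unsaid whether these were separate mice, so p-values here cover only the spread among arrays, which may be technical. All values are GCRMA signals on a log2 scale, given for each probe set relative to the median of its 12 arrays, so levels can be compared between populations but not between genes. In bulk RNA of a sorted population, fewer cells of a type and less RNA per cell cannot be told apart.

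Mitochondria carry their own ribosomes, which translate the messenger RNAs of mitochondrial DNA into core subunits of the respiratory chain and of ATP synthase. All proteins of these ribosomes are encoded in the nucleus, made in the cytosol and imported. A part of them has counterparts in the bacterial ribosome, and the others are found in mitochondria alone. In blood formation the erythroid lineage depends on mitochondria for the first and last steps of haem synthesis, and mature red cells lose them.

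Where a gene had several probe sets, the one with the greatest standard deviation (SD) over the 12 arrays stood for it. The 76 members had 156 probe sets. Of the members, 34 had 1 probe set and 42 had several. The range of a member over the 12 arrays lay between 0.44 and 3.37 log2, with a median of 1.15, against a median of 0.855 over all genes. In all, 72 of the 76 (94.7%) spanned at least 0.5 log2, against 58.9% of all genes. The 4 flat members were Mrpl24, Mrpl42, Mrps18c and Mrpl58, the last a release factor that became part of the large subunit.

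The members were mostly lower in CD27+ CMP than in CD27- CMP and lower in GMP than in MEP. Within either pair of like populations few members passed the test below, but so did few of all genes. The shares of all genes were 5.21% in CD27+ CMP against GMP and 0.0330% in CD27- CMP against MEP. A gene was called at an adjusted p under 0.05 in limma's moderated test, with adjustment by the Benjamini-Hochberg method over all 18193 genes. In CD27+ CMP against CD27- CMP, 27 members were lower, 0 were higher and 49 did not pass. In GMP against MEP, 35 were lower, 1 was higher and 40 did not pass. With array weights in the fit the count between the CMP fractions was 48, of which 47 were lower and 1 higher. The share of all genes called with weights is not given here, and the shares that follow are from the fit without weights. Over all genes, 22.4% were called between the CMP fractions (10.3% lower and 12.1% higher) and 22.7% between GMP and MEP (11.2% lower and 11.5% higher). Genes with a flat signal make up a larger part of all genes than of the members. Among genes that spanned at least 0.5 log2, 37.5% of the members and 37.6% of all genes were called between the CMP fractions, and 50.0% and 38.1% between GMP and MEP. The members differed from the array as a whole in direction, since 100% of their calls between the CMP fractions were lower, against 45.9% of the calls of all genes, and 97.2% of those between GMP and MEP, against 49.4%.

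The median difference of the 76 members was -0.55 log2 between CD27+ CMP and CD27- CMP, or 68.5% of the CD27- CMP level, against -0.03 over all genes. It was -0.54 log2 between GMP and MEP, or 68.7% of the MEP level, against -0.04 over all genes. Single members ranged from -2.44 to 0.36 in the first comparison and from -2.84 to 0.73 in the second. All 3 CD27+ CMP arrays lay below all 3 CD27- CMP arrays for 46 members and above for 1, where 17.9% and 15.7% of all genes did so. For GMP against MEP these counts were 45 and 1, where the shares over all genes were 25.7% and 14.7%. In GMP against MEP, 36 members were called with all arrays. The number was 17 without GMP replicate 1, 18 without MEP replicate 2 and 21 without MEP replicate 3. In each of these fits Mrpl33 was the 1 member higher. Shares of all genes called with an array left out are not given, so these counts cannot be set against the shares above.

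**Figure D1:**
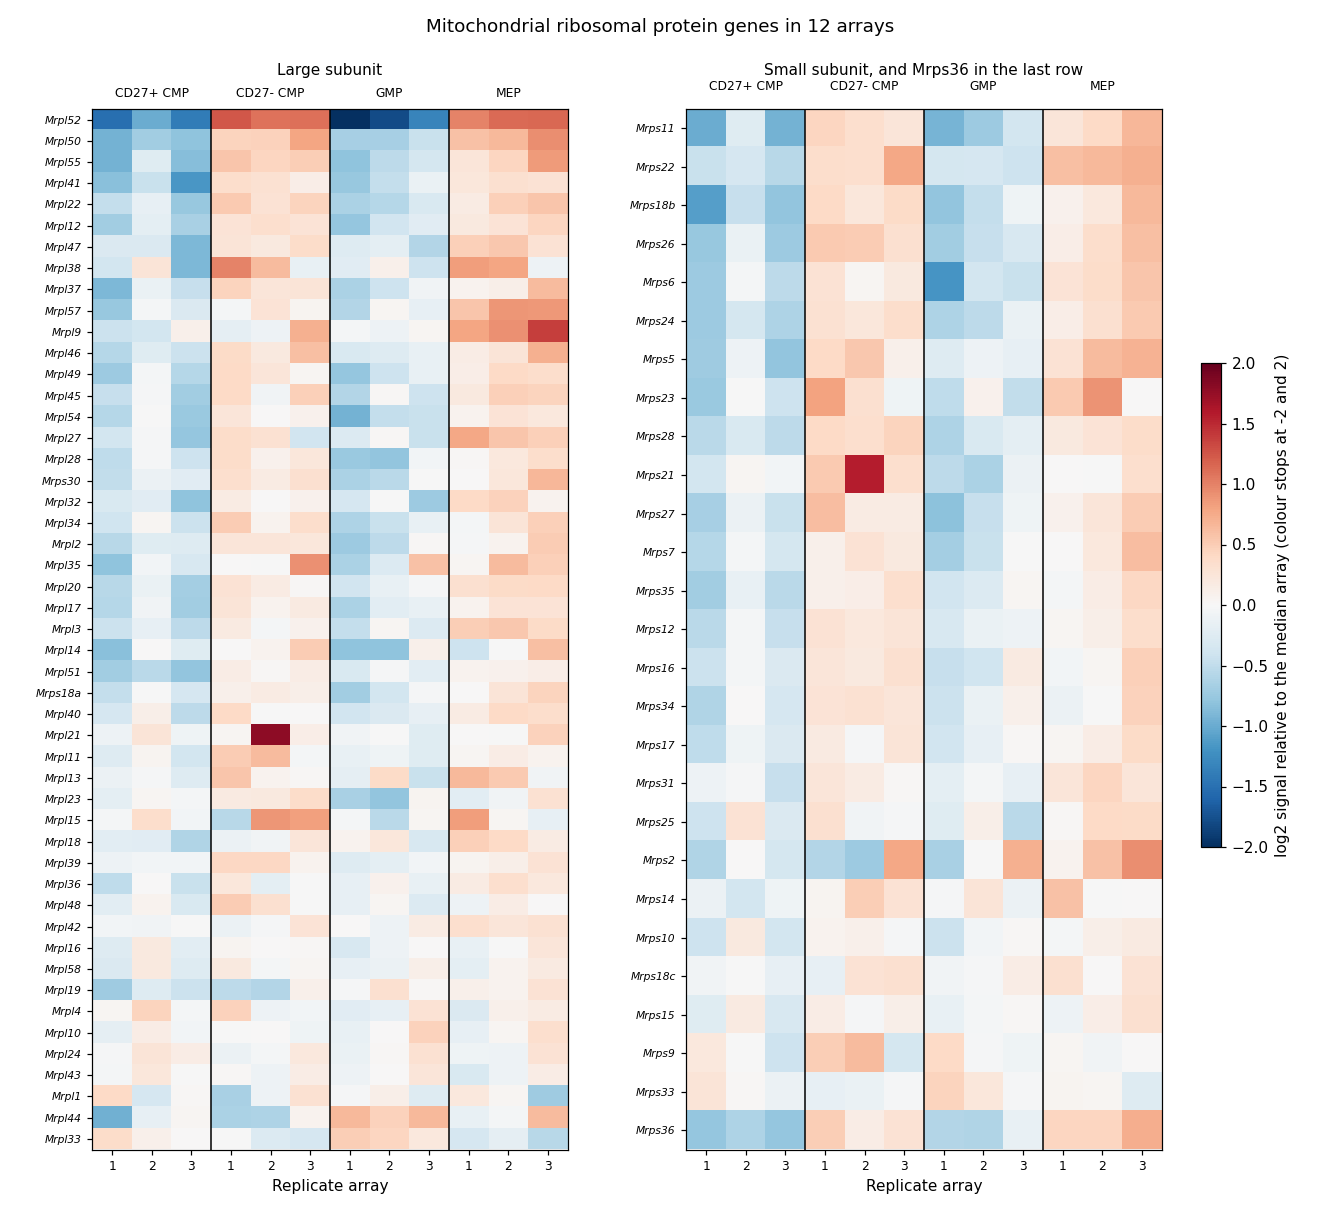
Each row is a member and each column an array; colour gives the log2 signal relative to the median array of that gene, red above and blue below, and stops at -2 and 2. Most rows are blue in the CD27+ CMP and GMP columns and red in the CD27- CMP and MEP columns, with Mrpl52 at the top the strongest and Mrpl33 at the bottom of the large subunit reversed.

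The promoters of 5 members are shown first, because the nuclear factors NRF1, GABP and YY1 are known to act on many genes for mitochondrial proteins. Mrpl52, Mrps22, Mrps26 and Mrps11 were lower in both comparisons, and Mrpl33 was the 1 member higher in GMP than in MEP; all 5 were picked after their values and matches had been seen. The sequences are from RefSeq on build GRCm38.p6 and give the 250 bases before the start of the gene, read 5′ to 3′ on the strand of the gene. Capitals mark the letters of CCGGAAG, the core of the GABP site of the ETS family, or of AAGATGGCG, the core of the YY1 site, on either strand.
Mrpl52, chr14:54426659-54426908, plus strand: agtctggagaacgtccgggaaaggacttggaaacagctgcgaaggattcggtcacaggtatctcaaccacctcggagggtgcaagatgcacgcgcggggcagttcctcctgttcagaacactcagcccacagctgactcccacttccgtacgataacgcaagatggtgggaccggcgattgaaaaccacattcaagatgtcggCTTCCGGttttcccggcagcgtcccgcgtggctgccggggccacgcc
Mrps22, chr9:98601680-98601929, minus strand: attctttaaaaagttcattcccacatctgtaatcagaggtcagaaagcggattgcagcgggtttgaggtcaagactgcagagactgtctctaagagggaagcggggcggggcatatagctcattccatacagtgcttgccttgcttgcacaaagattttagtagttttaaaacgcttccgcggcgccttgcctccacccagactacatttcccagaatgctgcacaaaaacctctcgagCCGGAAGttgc
Mrps26, chr2:130563507-130563756, plus strand: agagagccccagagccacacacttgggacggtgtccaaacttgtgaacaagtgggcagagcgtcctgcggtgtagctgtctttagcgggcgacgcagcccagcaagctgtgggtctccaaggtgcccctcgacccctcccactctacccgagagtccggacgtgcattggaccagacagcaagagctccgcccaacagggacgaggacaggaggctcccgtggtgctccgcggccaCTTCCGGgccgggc
Mrps11, chr7:78782881-78783130, plus strand: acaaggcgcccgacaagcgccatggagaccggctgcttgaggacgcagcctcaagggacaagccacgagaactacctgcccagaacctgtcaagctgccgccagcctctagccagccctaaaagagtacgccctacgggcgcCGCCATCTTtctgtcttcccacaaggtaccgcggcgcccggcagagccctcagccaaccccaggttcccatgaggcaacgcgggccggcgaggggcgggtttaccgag
Mrpl33, chr5:31613701-31613950, plus strand: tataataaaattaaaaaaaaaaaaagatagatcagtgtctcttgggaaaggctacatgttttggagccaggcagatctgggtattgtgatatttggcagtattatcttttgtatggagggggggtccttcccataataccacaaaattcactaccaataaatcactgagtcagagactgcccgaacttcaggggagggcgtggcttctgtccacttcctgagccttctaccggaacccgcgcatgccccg

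In Mrpl52 the GABP letters begin 47 bases before the start, in Mrps22 11 bases and in Mrps26 14 bases, and in Mrps11 the YY1 letters begin 108 bases before it. Most of the Mrps11 window lies within the gene of another member, Mrpl46 (chr7:78775341-78783089), and so do these YY1 letters. Mrpl33 holds none of the GABP, YY1 or NRF1 letters in these 250 bases, and GABP letters once after the start. Mrpl52 holds GABP letters once more after the start, and Mrps26 holds NRF1 letters 2 times there. A window of 300 bases, with 50 bases after the start, was searched for 67 members, and 9 members had no entry. The NRF1 letters (GCGC, any base, then TGCGC) stood in 12 of 67 members (17.9%), against 8.63% of the 14368 array genes with a promoter entry. GABP letters stood in 25 members (37.3%), against 15.0%, and YY1 letters in 8 (11.9%), against 2.54%. Any of these letters stood in 39 members, and among the 114 matches of all letters searched in the members 1 pair overlapped. GABP letters stood in 38.1% of the 21 members with a promoter entry that were lower in both comparisons and in 37.0% of the other 46, with NRF1 letters in 14.3% and 19.6%, and YY1 letters in 14.3% and 10.9%. Of other letters, the Myc E-box CACGTG stood in 7.46% of the members and 10.3% of array genes, the GATA core AGATAA in 16.4% and 9.53%, and CCAAT in 38.8% and 42.0%. The GATA core stood in 9.52% of the 21 members lower in both comparisons and in 19.6% of the other 46. For the Myc E-box these shares were 4.76% and 8.7%, and for CCAAT 33.3% and 41.3%. A match is a description of the letters and shows no binding.

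Among large subunit members, 16 of 49 were lower in CD27+ CMP than in CD27- CMP and 0 were higher, with a median of -0.53. In GMP against MEP 24 were lower and 1 was higher, with a median of -0.56. Mrpl52, a protein with no bacterial counterpart, had the largest differences in both. Mrpl52 stood at -1.50, -0.99 and -1.40 in the CD27+ CMP arrays, against 1.24, 1.08 and 1.11 in the CD27- CMP arrays. It stood at -2.13, -1.80 and -1.32 in the GMP arrays, against 0.99, 1.13 and 1.15 in the MEP arrays. The 6 CD27+ CMP and GMP arrays were thus at or below -0.99, and the 6 CD27- CMP and MEP arrays at or above 0.99. The difference was -2.44 log2 (SE 0.20, adjusted p = 1.5e-05) between the CMP fractions, or 18.4% of the CD27- CMP level. It was -2.84 (SE 0.20, adjusted p = 4.8e-06) between GMP and MEP, or 14.0% of the MEP level. Of its 4 probe sets, 3 gave -2.44, -2.28 and -2.11 between the CMP fractions, and the remaining one was flat at -0.09.

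Mrpl50, another mitochondria-specific protein, followed. Its values were -0.94, -0.69 and -0.80 in CD27+ CMP, against 0.45, 0.46 and 0.80 in CD27- CMP. In GMP they were -0.66, -0.66 and -0.45, against 0.58, 0.65 and 0.93 in MEP. No array of one side reached the other, and the differences were -1.38 (SE 0.13, adjusted p = 3.4e-05) and -1.31 (adjusted p = 4.4e-05). A second probe set of Mrpl50 gave -0.65 and -0.80, neither of which passed.

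Mrpl55, a counterpart of a bacterial large subunit protein, stood at -0.95, -0.24 and -0.85 in CD27+ CMP, against 0.56, 0.43 and 0.49 in CD27- CMP. In GMP it stood at -0.80, -0.53 and -0.35, against 0.24, 0.43 and 0.86 in MEP. The groups did not overlap, although CD27+ CMP replicate 2 lay nearer to the CD27- CMP arrays than the other two, and the differences were -1.17 (SE 0.21, adjusted p = 0.0031) and -1.07 (adjusted p = 0.0051). Mrpl41, which is mitochondria-specific, stood at -0.83, -0.44 and -1.16 in CD27+ CMP, against 0.36, 0.31 and 0.14 in CD27- CMP. It stood at -0.76, -0.48 and -0.14 in GMP, against 0.23, 0.32 and 0.29 in MEP. These arrays were apart as well, with differences of -1.08 (SE 0.19, adjusted p = 0.0025) and -0.74 (adjusted p = 0.020), and a second probe set gave -1.02 and -0.73 where a further one was flat.

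Other large subunit members lower in both comparisons included Mrpl22, which lines the exit tunnel of the ribosome (-0.89 and -0.90), and Mrpl12, a stalk protein that also binds the mitochondrial RNA polymerase (-0.81 and -0.76). Mrpl46 (-0.81 and -0.61), Mrpl47 (-0.77 and -0.78) and Mrpl20 (-0.61 and -0.55) were lower in both too. Others passed only one of the tests. Mrpl37 was lower between the CMP fractions (-0.82, adjusted p = 0.027), and its -0.65 between GMP and MEP had an adjusted p of 0.072. Mrpl54 and Mrpl28 were lower in GMP than in MEP (-0.80 and -0.72) and had -0.55 and -0.54 between the CMP fractions, which did not pass. Another probe set of Mrpl28 gave -0.53 between the CMP fractions, with an adjusted p of 0.0072 over all probe sets in limma. A further one gave -0.56 (adjusted p = 0.056), so the call of Mrpl28 between the CMP fractions depends on the probe set.

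In the small subunit, 10 of 26 members were lower in CD27+ CMP than in CD27- CMP and 10 were lower in GMP than in MEP, with medians of -0.59 and -0.50 and 0 higher in either. The gene with the tightest groups was Mrps22, a mitochondria-specific protein in which human mutations cause a mitochondrial disease. Its values were -0.45, -0.34 and -0.55 in CD27+ CMP, against 0.36, 0.33 and 0.77 in CD27- CMP. They were -0.35, -0.33 and -0.41 in GMP, against 0.60, 0.66 and 0.71 in MEP. The 6 CD27+ CMP and GMP arrays lay between -0.55 and -0.33, below all 6 of the others, and the differences were -0.93 (SE 0.11, adjusted p = 0.00018) and -1.02 (adjusted p = 9e-05), or 52.3% of the CD27- CMP level and 49.3% of the MEP level.

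Mrps18b is one of 3 relatives of the bacterial protein S18. It stood at -1.11, -0.46 and -0.78 in CD27+ CMP, against 0.39, 0.22 and 0.39 in CD27- CMP, and differed by -1.11 (SE 0.22, adjusted p = 0.0051). In GMP it stood at -0.79, -0.48 and -0.08, against 0.08, 0.22 and 0.64 in MEP, where GMP replicate 3 came close to MEP replicate 1, and the difference was -0.76 (adjusted p = 0.036). The relatives behaved unevenly. Mrps18a, placed in the large subunit, had -0.41 (adjusted p = 0.17) between the CMP fractions and was lower in GMP than in MEP (-0.60, adjusted p = 0.040). Mrps18c, of the small subunit, was flat, with -0.23 and -0.20, neither of which passed.

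Mrps11, a counterpart of bacterial S11 on the platform of the small subunit, stood at -0.99, -0.24 and -0.95 in CD27+ CMP, against 0.43, 0.34 and 0.25 in CD27- CMP. Its values were -0.93, -0.73 and -0.36 in GMP, against 0.24, 0.40 and 0.67 in MEP. The groups were apart in both, with differences of -1.06 (SE 0.22, adjusted p = 0.0060) and -1.11 (adjusted p = 0.0046), while its second probe set was flat. Mrps26, which is mitochondria-specific, stood at -0.76, -0.14 and -0.73 in CD27+ CMP, against 0.53, 0.51 and 0.32 in CD27- CMP. In GMP its values were -0.69, -0.46 and -0.32, against 0.14, 0.35 and 0.59 in MEP. CD27+ CMP replicate 2 was again the highest array of its group, and the differences were -0.99 (SE 0.18, adjusted p = 0.0033) and -0.85 (adjusted p = 0.0076). Mrps28 (-0.85 and -0.65), Mrps24 (-0.86 and -0.75), Mrps5 (-0.88 and -0.72) and Mrps27 (-0.72 and -0.74) were lower in both comparisons as well. Mrps12, whose bacterial counterpart S12 sits at the decoding centre, was lower between the CMP fractions (-0.59, adjusted p = 0.0098) and had -0.35 (adjusted p = 0.10) between GMP and MEP.

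Mrps36, the dehydrogenase subunit, was lower in both comparisons too. It stood at -0.77, -0.62 and -0.77 in CD27+ CMP, against 0.49, 0.15 and 0.30 in CD27- CMP. In GMP it stood at -0.58, -0.59 and -0.15, against 0.43, 0.43 and 0.73 in MEP. The arrays did not overlap, and the differences were -1.03 (SE 0.14, adjusted p = 0.00052) and -0.97 (adjusted p = 0.00071).

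Counts by the origin of the proteins were as follows. Of the 45 members with a bacterial counterpart, 13 were lower between the CMP fractions, and in GMP against MEP 16 were lower and 1 was higher, with medians of -0.51 and -0.49. Of the 30 mitochondria-specific ribosomal members, 13 and 18 were lower, with medians of -0.62 and -0.63. Of the relatives of bacterial S18, Mrps18c was counted with the bacterial counterparts, and Mrps18a and Mrps18b with the mitochondria-specific members. No test was made between these classes.

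**Figure D2:**
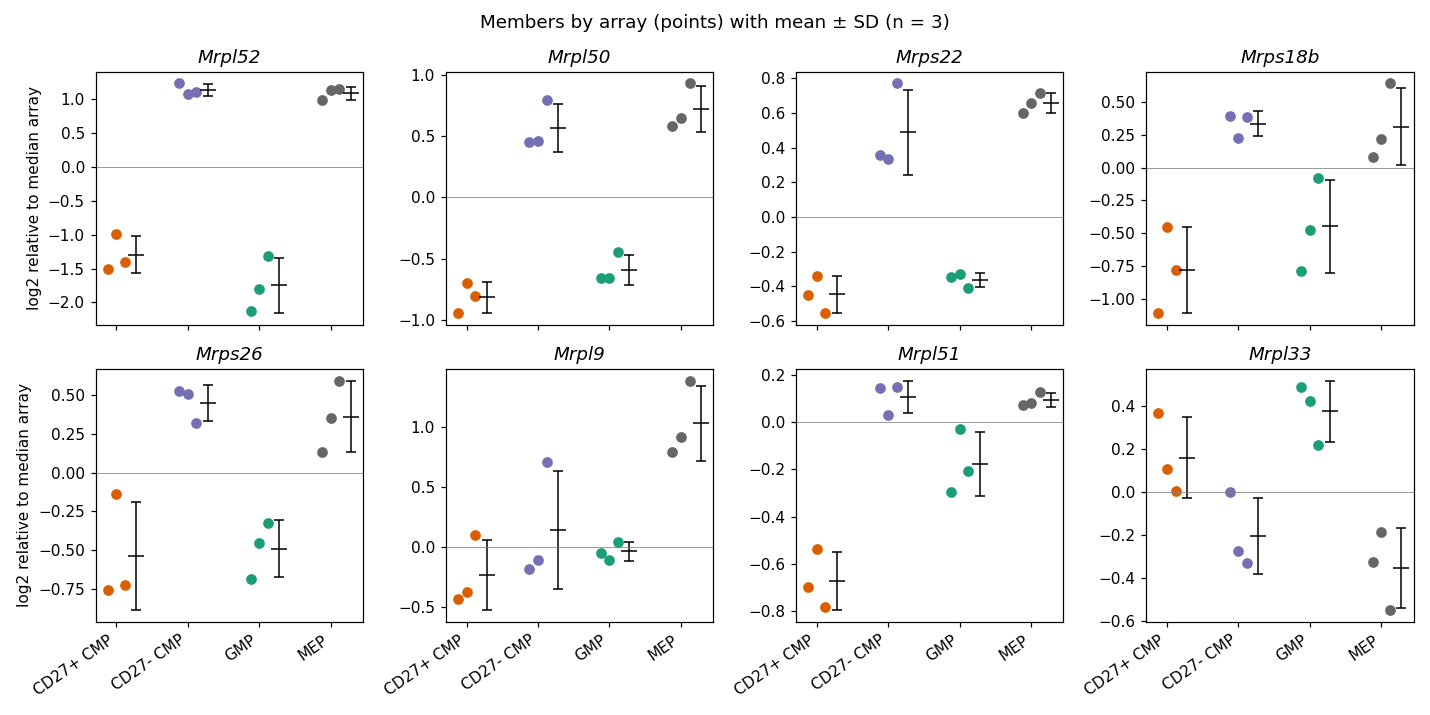
Points are arrays and bars the mean ± SD (n = 3) of 8 members in the 4 populations, in log2 relative to the median array. Mrpl52, Mrpl50, Mrps22, Mrps18b and Mrps26 separate CD27+ CMP and GMP below from CD27- CMP and MEP above, Mrpl9 is highest in MEP, Mrpl51 is lowest in CD27+ CMP, and Mrpl33 runs the other way.

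The exceptions were few. Mrpl33, a counterpart of bacterial L33, was the 1 member higher in GMP than in MEP. It stood at 0.49, 0.42 and 0.22 in GMP, against -0.33, -0.19 and -0.55 in MEP, with no overlap. The difference was 0.73 (SE 0.14, adjusted p = 0.0033), or 166% of the MEP level. Between the CMP fractions it averaged 0.16 ± 0.19 in CD27+ CMP and -0.20 ± 0.18 in CD27- CMP (SD, n = 3 each), and the difference of 0.36 did not pass (adjusted p = 0.095). A second probe set of Mrpl33 was flat, at -0.03 and -0.05. Members without a clear direction included Mrpl10 (-0.00 and 0.04), Mrpl4 (0.05 and -0.03), Mrpl24 (0.11 and 0.03), Mrpl43 (0.03 and 0.14), Mrpl1 (0.18 and 0.10) and Mrps33 (0.16 and 0.27), where none of the 12 differences passed.

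Mrpl9, Mrps6 and Mrpl57 were among the members with the largest differences between GMP and MEP, and their chosen probe sets did not pass between the CMP fractions. Mrpl9, a counterpart of bacterial L9, stood at -0.04, -0.11 and 0.04 in GMP, against 0.79, 0.92 and 1.39 in MEP. It stood at -0.43, -0.37 and 0.11 in CD27+ CMP, against -0.18, -0.10 and 0.70 in CD27- CMP. MEP was thus apart from GMP, while the CMP fractions overlapped, and the differences were -1.07 (SE 0.25, adjusted p = 0.013) between GMP and MEP and -0.37 (adjusted p = 0.38) between the CMP fractions. The other 2 probe sets of Mrpl9 gave -0.82 and -0.76 between the CMP fractions, with adjusted p of 0.028 and 0.034 over all probe sets in limma, so the call between the CMP fractions depends on the probe set. Mrps6, a counterpart of bacterial S6, stood at -1.18, -0.36 and -0.44 in GMP, against 0.28, 0.37 and 0.56 in MEP, a difference of -1.06 (SE 0.23, adjusted p = 0.0080). Mrpl57, a mitochondria-specific protein, stood at -0.59, 0.04 and -0.16 in GMP, against 0.56, 0.88 and 0.87 in MEP, a difference of -1.01 (SE 0.21, adjusted p = 0.0063). Both were without overlap, and between the CMP fractions they had -0.60 (adjusted p = 0.10) and -0.46 (adjusted p = 0.18); a second probe set of Mrpl57 gave -0.89 there, with an adjusted p of 0.0044 over all probe sets.

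The calls of the 2 comparisons, which share no arrays, overlapped. Of the members, 22 were lower in both, which is 81.5% of those lower in CD27+ CMP and 62.9% of those lower in GMP. Over all genes these shares were 78.0% and 71.4%. A further 5 were called lower between the CMP fractions alone, 13 lower and 1 higher between GMP and MEP alone, and 35 in neither. The sign was the same in both for 73 members (96.1%), against 86.7% of all genes. The difference between the 2 comparisons was tested by itself as a contrast of limma's fit. None of the 76 members passed, with 1 at an unadjusted p under 0.05, while 2.07% of all genes passed. The 1 member was Mrpl51, with -0.51 (SE 0.11, adjusted p = 0.061). Its difference of contrasts passed without GMP replicate 1 (adjusted p = 0.049) and without CD27+ CMP replicate 2 (adjusted p = 0.035).

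**Figure D3:**
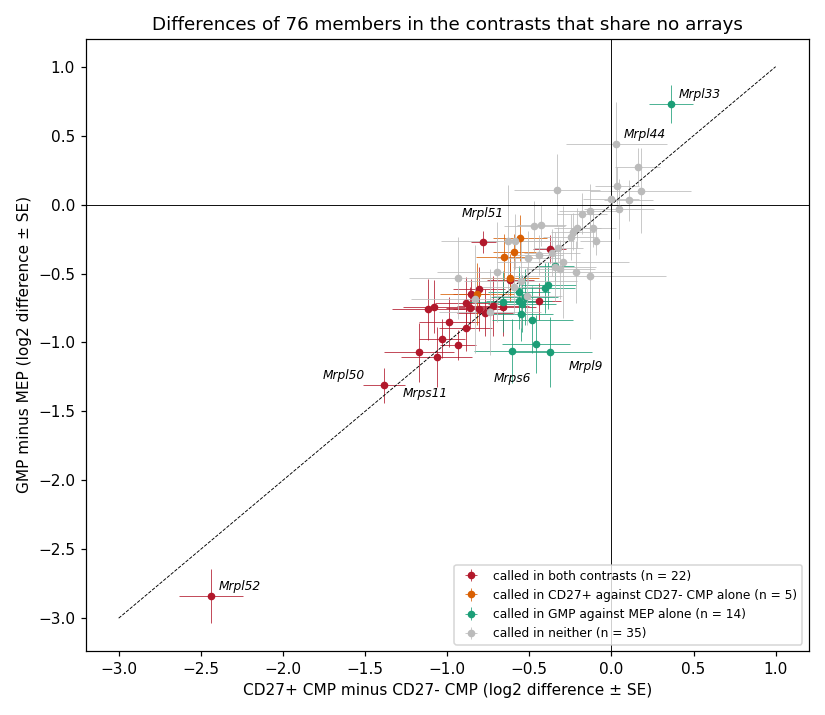
Each point is a member, with its log2 difference ± SE in CD27+ CMP minus CD27- CMP on the horizontal axis and in GMP minus MEP on the vertical axis; the dashed line marks equal differences. The 22 members called in both lie at the lower left, Mrpl52 far from the rest, and Mrpl33 is the only called member at the upper right.

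Over all 12 arrays, the 6 CD27+ CMP and GMP arrays lay below the 6 CD27- CMP and MEP arrays for 32 members (42.1%) and above for 1, Mrpl33. Over all genes 10.1% lay below and 10.2% above. The 32 held 19 of the 49 large subunit members, 12 of the 26 of the small subunit and Mrps36. By group means, CD27+ CMP and GMP were both below CD27- CMP and MEP for 65 members (85.5%, against 56.1% of all genes) and above for 5 (6.58%, against 20.1%). The highest mean was in MEP for 41 members, in CD27- CMP for 27, in CD27+ CMP for 4 and in GMP for 4. The lowest was in CD27+ CMP for 48, in GMP for 22, in CD27- CMP for 4 and in MEP for 2. Within each pair of like populations the order of neighbours mostly rested on differences that did not pass.

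Between the like populations few members differed, and few of all genes did. In CD27+ CMP against GMP 4 members had an unadjusted p under 0.05 in limma, where 2452 of the 18193 genes did. Of the members 1 was called, against 5.21% of all genes. It was Mrpl51, a mitochondria-specific protein, at -0.70, -0.54 and -0.78 in CD27+ CMP, against -0.30, -0.03 and -0.20 in GMP, a difference of -0.49 (SE 0.08, adjusted p = 0.0063) with no overlap. The number called was 6 with array weights, while the 5.21% of all genes comes from the fit without weights. The same-numbered arrays of CD27+ CMP and GMP deviated together: with the replicate number as a block over all 12 arrays 2 members were called, Mrpl51 and Mrpl44 (-0.95, adjusted p = 0.048), and with the 6 arrays of these groups alone 0 were, with or without the block. Mrpl51 stood at 0.14, 0.03 and 0.15 in CD27- CMP and at 0.07, 0.08 and 0.13 in MEP. CD27+ CMP thus held the lowest level, and Mrpl51 had -0.78 (adjusted p = 7.1e-05) against CD27- CMP, or 58.3% of its level, while GMP against MEP gave -0.27 (adjusted p = 0.036). The other probe sets of Mrpl51 gave -0.33 and 0.10 between the CMP fractions, and neither passed. With the mean of its probe sets the difference between CD27+ CMP and GMP was -0.26 and did not pass, and it did not pass either when only genes spanning at least 0.5 log2 were tested. For Mrpl44 and Mrpl52 the call in this comparison depended on the probe set too. Their chosen probe sets did not pass. Over all probe sets in limma, another of Mrpl44 gave -0.68 (adjusted p = 0.0096), and others of Mrpl52 gave 0.72 and 0.81 (adjusted p = 0.028 and 0.018).

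In CD27- CMP against MEP limma called 0 members, against 0.0330% of all genes, or 6 genes. An unadjusted p under 0.05 was found for 6 members and for 1101 of the 18193 genes, so the lack of calls holds for the whole array. The median difference of the members was -0.03, against -0.02 over all genes. The largest was that of Mrpl9 (-0.89, SE 0.25, adjusted p = 0.48), followed by Mrps2 (-0.72) and Mrps21 (0.70). A p that misses the threshold does not show equal levels.

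The comparisons that cross the pairs share their arrays with those above and are given as values. In CD27+ CMP against MEP 39 members were lower and 1, Mrpl33, was higher (0.51, adjusted p = 0.021, not passed without MEP replicate 1, MEP replicate 3 or CD27+ CMP replicate 1), where 24.4% of all genes were called (12.5% lower and 11.9% higher), and the median was -0.59, or 66.2% of the MEP level. The largest were Mrpl52 (-2.39), Mrpl50 (-1.53), Mrpl9 (-1.26) and Mrps36 (-1.25). The count was 23 without CD27+ CMP replicate 3, 25 without CD27+ CMP replicate 1 and also without MEP replicate 2, and 26 without MEP replicate 3. In CD27- CMP against GMP 28 members were higher and 2 lower, where 22.3% of all genes were called (10.1% higher and 12.1% lower), and the median was 0.48, or 139% of the GMP level. Mrpl52 (2.89), Mrps21 (1.23), Mrpl50 (1.16) and Mrpl55 (1.05) were the largest. This count was 12 without GMP replicate 1, 19 without GMP replicate 2 and 16 without CD27- CMP replicate 1, and 60 (56 higher, 4 lower) with array weights. The 22.3% of all genes comes from the fit without weights, and shares of all genes with an array left out are not given.

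Mrps21, a counterpart of bacterial S21, stood at 0.53, 1.57 and 0.34 in CD27- CMP, against -0.53, -0.63 and -0.12 in GMP. CD27- CMP replicate 2 was far above the other two, as it was for Mrpl21 (1.79, against 0.04 and 0.14), and the second probe set of Mrps21 gave 0.37 in CD27- CMP against GMP, where the chosen one gave 1.23 (adjusted p = 0.014). The members lower in CD27- CMP than in GMP were Mrpl33 (-0.58, adjusted p = 0.012) and Mrpl44 (-0.98, SE 0.31, adjusted p = 0.049). Mrpl44 carries a ribonuclease III fold, and its human mutations cause a cardiomyopathy. It stood at -0.63, -0.62 and 0.06 in CD27- CMP, against 0.64, 0.46 and 0.66 in GMP. GMP was its highest population, with CD27+ CMP at -0.97, -0.17 and 0.05 and MEP at -0.14, -0.05 and 0.63. The call of Mrpl44 did not hold under 11 alternatives, with differences of -0.86 to -1.04, among them quantile normalization, median centring and leaving out any of the GMP arrays. In CD27- CMP against GMP another probe set of Mrpl44 gave -0.52, with an adjusted p of 0.01 over all probe sets in limma. Its remaining probe sets gave -0.21 and -0.07, and neither passed.

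The choice of 1 probe set per gene by its spread favours probe sets that differ. Over all 156 probe sets, 39 were lower and 0 higher between the CMP fractions, where 14.1% of all probe sets were called. Between GMP and MEP 46 were lower and 2 higher, of Mrpl33 and Mrpl44, where 14.8% were called. Of the 156, 30 spanned under 0.5 log2. Calls in opposite directions within a member were found for 0 members. Of the 42 members with several probe sets, 7 had at least 2 called lower between the CMP fractions and 10 between GMP and MEP. Of the 34 members with 1 probe set, for which nothing was chosen, 13 were lower between the CMP fractions and 15 between GMP and MEP.

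The mean of the 76 members was -0.46, -0.09 and -0.43 in the CD27+ CMP arrays, against 0.23, 0.19 and 0.22 in the CD27- CMP arrays. It was -0.41, -0.22 and -0.12 in the GMP arrays, against 0.16, 0.28 and 0.37 in the MEP arrays. CD27+ CMP and GMP arrays were all below CD27- CMP and MEP arrays and more spread out. The medians of all probe sets on the arrays ran from -0.03 to 0.05. Markers of the lineages moved with this level. The mean of 8 erythroid marker genes, 7 of which spanned at least 0.5 log2, ran from -3.76 to -2.61 in CD27+ CMP and from 2.31 to 2.38 in CD27- CMP, and from -4.09 to -2.36 in GMP and from 2.56 to 2.72 in MEP. Within the low groups, CD27+ CMP replicate 2 and GMP replicate 3 had both the highest member mean and the highest erythroid mean of their group. Within the high groups it was otherwise: MEP replicate 3 had the highest member mean and the lowest erythroid mean, and CD27- CMP replicate 2 the lowest member mean and the highest erythroid mean. The mean of 8 granulocyte-monocyte markers ran from 2.80 to 3.21 in CD27+ CMP and from -3.10 to -2.56 in CD27- CMP, and from 3.11 to 3.60 in GMP and from -4.25 to -3.0 in MEP. Of 4 megakaryocyte markers, Gp5 (-4.33 and -5.11) and Vwf (-1.82 and -2.26) were lower in both comparisons. The other 2 did not pass in either, and the list reached up to -0.04 between the CMP fractions and 0.35 between GMP and MEP. The mean of the 4 ran from -0.85 to -0.20 in CD27+ CMP and from 0.83 to 2.46 in CD27- CMP, and from -2.02 to -0.85 in GMP and from 0.42 to 1.0 in MEP. Of 4 mature B cell markers 3 were flat, and Cd79b was higher in both (5.10 and 6.01). Of 7 stromal and endothelial markers 5 were flat, and Pecam1 (5.0 and 4.41) and Pdgfrb (4.20 and 3.05) were higher in both. All 6 T and NK cell markers were flat, and centred values do not show which markers are absent. Cd34, a sort marker of both CMP fractions, averaged 4.10 in CD27+ CMP and -3.22 in CD27- CMP, and 3.03 in GMP and -4.91 in MEP, so the CD27- CMP arrays lay with the CD34- MEP arrays. The part of lineage composition in the member differences was not tested.

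**Figure D4:**
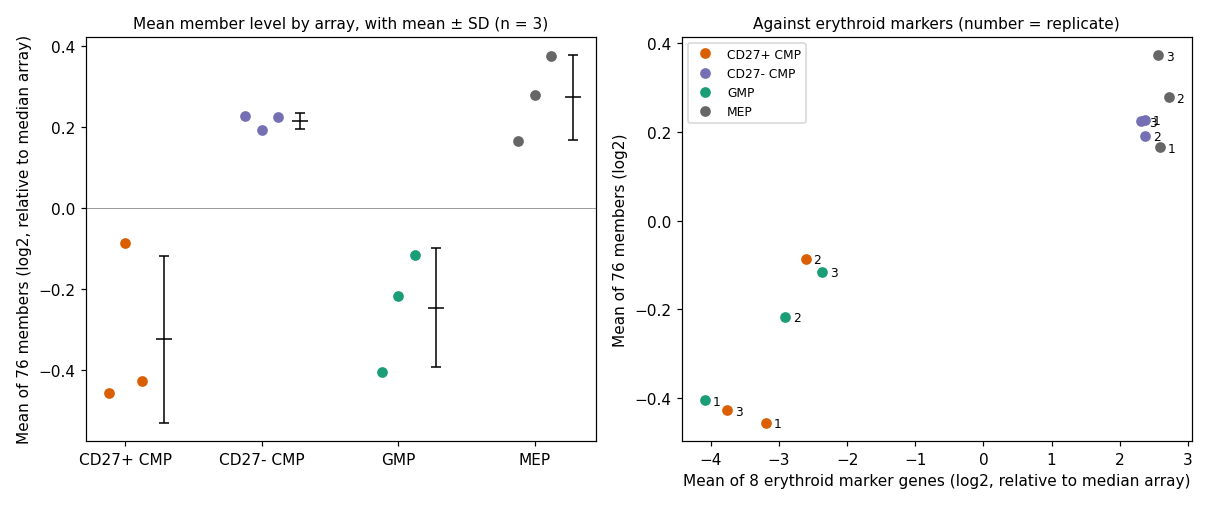
The left panel gives the mean of the 76 members in each array with the group mean ± SD (n = 3), in log2 relative to the median array; the right panel sets it against the mean of 8 erythroid marker genes, with replicate numbers. All CD27+ CMP and GMP arrays are below 0 on both measures and all CD27- CMP and MEP arrays above.

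Among genes that act with the mitochondrial ribosome, all those called in these comparisons were lower. Over all genes, 10.3% were lower and 12.1% higher between the CMP fractions, and 11.2% lower and 11.5% higher between GMP and MEP. Of 4 further mitoribosome proteins without an Mrp symbol, 3 were lower in CD27+ CMP than in CD27- CMP and 4 in GMP than in MEP, among them the small subunit GTPase Dap3 (-0.92 and -1.17) and Ptcd3 (-0.83 and -0.82). Of 15 mitochondrial translation factors 6 were lower and 0 higher in either comparison, with medians of -0.74 and -0.60. They included the elongation factor gene Tsfm (-0.92 and -0.71) and the recycling factor genes Gfm2 (-0.73 and -1.07) and Mrrf (-0.74 and -0.86). Of 16 mitochondrial tRNA synthetases 8 were lower and 0 higher in either, with medians of -0.78 and -0.81; Nars2, for asparagine, had -1.18 and -1.06. Of 30 genes for mitoribosome assembly and rRNA modification, 11 and 12 were lower and 0 higher, among them the GTPase gene Noa1 (-1.15 and -1.37), Mpv17l2 (-1.23 and -1.75) and Afg3l2 (-1.19 and -1.12), which encodes a protease that processes Mrpl32. Of 22 genes for mitochondrial DNA and RNA synthesis, 12 and 10 were lower and 0 higher. The DNA polymerase gene Polg had -1.56 (adjusted p = 0.0062) between the CMP fractions and -0.61 (adjusted p = 0.24) between GMP and MEP.

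Other ribosomal and mitochondrial lists had smaller medians. Over all genes, 22.4% were called between the CMP fractions and 22.7% between GMP and MEP. In the same order, 12.8% and 10.6% of cytosolic ribosomal protein genes and 11.8% and 5.88% of ATP synthase subunits were called. For complex I the shares were 26.5% and 23.5%, near those of all genes, and for complexes III and IV 33.3% and 25%. Of 47 cytosolic ribosomal protein genes, 4 were lower and 2 higher between the CMP fractions and 4 lower and 1 higher between GMP and MEP, with medians of -0.02 and -0.11. Rpl14 was lower in both (-0.73 and -0.89) and Rps4l higher (1.04 and 1.05). Of 34 nuclear complex I subunits, 8 were lower and 1 higher, and then 7 and 1, with medians of -0.29 and -0.20. Of 24 subunits of complexes III and IV, 7 were lower and 1 higher, and then 6 and 0, with medians of -0.30 and -0.15. The 1 higher was Cox6a2, a muscle-type subunit, by 4.46 in CD27+ CMP against CD27- CMP. Of 17 ATP synthase subunits, 2 and 1 were lower, with medians of -0.11 and -0.18. In CD27- CMP against MEP, 0 genes were called in any of these lists, where 0.0330% of all genes were. These lists were described by counts alone and were not tested against each other.

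**Figure D5:**
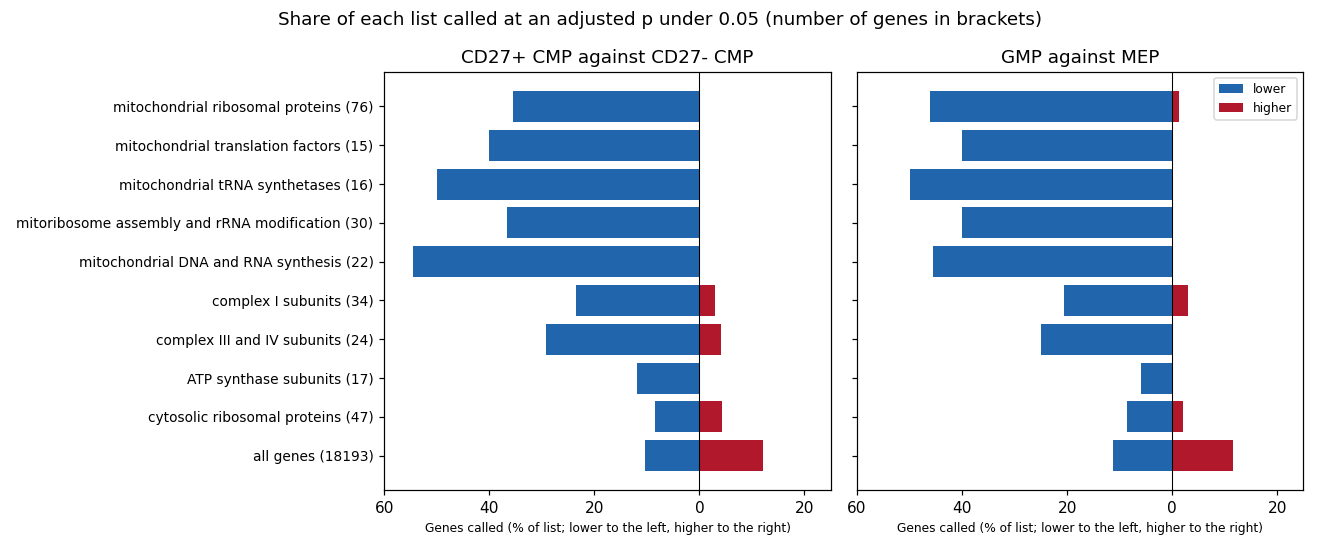
Bars give the percentage of each list called lower (left of 0) and higher (right of 0) at an adjusted p under 0.05, in CD27+ CMP against CD27- CMP and in GMP against MEP, with the number of genes in brackets. The mitochondrial translation lists extend to the left with almost no bar to the right, while cytosolic ribosomal proteins and all genes have short bars on both sides.

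Among 16 regulators of nuclear genes for mitochondria, 3 were lower and 2 higher in either comparison. Called were 31.2% of them in either, against 22.4% of all genes between the CMP fractions and 22.7% between GMP and MEP. Gabpb1, which encodes the beta subunit of GABP, was higher in CD27+ CMP than in CD27- CMP (1.57, adjusted p = 6.8e-05) and in GMP than in MEP (0.79, adjusted p = 0.0053). Creb1 was higher in both too (1.20 and 1.11). Of the other GABP genes, Gabpa had 0.25 and 0.16 and Gabpb2 had -0.84 and -0.49. Yy1 had 0.22 and 0.27. None of these differences of Gabpa, Gabpb2 and Yy1 passed. Nrf1 was lower in both (-0.61, adjusted p = 0.034, and -0.93, adjusted p = 0.0037), and so was the coactivator gene Pprc1 (-0.78 and -0.94). Tfam, which packages mitochondrial DNA, had -0.49 (adjusted p = 0.34) and -1.0 (adjusted p = 0.041). Myc had -0.12 and -0.37, and neither passed. RNA levels of a regulator say nothing of its activity.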

How the data were processed

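The authors deposited GCRMA values, as the submitters' processing notes say, read here as log2 because GCRMA gives log2. The sources used here do not name its version or log base. Every one of the 45037 probe sets has a median of 0 over the 12 arrays (largest departure 5e-07), so the absolute signal is lost and no filter on low signal could be applied, where the plan had assumed levels. The annotation pairs 34945 probe sets with 1 symbol, 932 with several and 9160 with none; 4 probe sets that share a member's name with another gene were left out. Member symbols needed 0 updates.

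Members are the genes named Mrpl or Mrps with a number, each by its probe set with the largest SD. Members, context lists, bacterial counterparts and classes were chosen with earlier results of these data known. limma 3.58.1 in R 4.3.3 was fitted once to 12 arrays and 18193 genes (prior degrees of freedom 1.01), two-sided, with Benjamini-Hochberg adjustment over all genes; SE is the standard error of a log2 difference, with a median of 0.190 for members. Named for every array are members past the threshold without overlap and with the largest difference, up to 8 in each direction for the first 2 comparisons and up to 4 for the others; the remaining members and list examples are named with values. The number of arrays limits the precision. On simulated data for CD27+ CMP against CD27- CMP with 18193 genes, 60% of 100 genes changed by 1 log2 and 87% of 100 changed by 2 log2 were called. No other genes were changed there, while 22.4% of all genes were called in the data. The Benjamini-Hochberg cutoff depends on that share, so these percentages do not give the recovery in the data. Deviations from the group means correlated over 0.1 for all 3 same-numbered pairs of GMP with MEP (0.275 to 0.597) and of GMP with CD27+ CMP (0.172 to 0.552). These groups were therefore also fitted as paired, a pairing read from the data and not from the labels. The fit to 12 arrays holds no block, so its p-values for these comparisons leave the pairing out. The other pairs of groups had 0, 1 or 2 of 3 such pairs. No pair of arrays was identical (highest correlation 0.903). Alternatives were quantile normalization, median centring, mean of probe sets, a minimum range, array weights, robust moderation, a replicate block, each probe set on its own and leaving out each array, with fits on the paired groups alone added after seeing the data.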

Additional observations from a re-analysis of the deposited data

How the results depend on the processing

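Between the CMP fractions, between GMP and MEP and between CD27+ CMP and MEP, called members were mostly lower under all alternatives, and the counts moved with arrays and weights. With array weights the count of called members was 48 in CD27+ CMP against CD27- CMP (1 higher, 47 lower), 60 in CD27- CMP against GMP (56 higher, 4 lower) and 6 in CD27+ CMP against GMP. Shares of all genes called with weights are not given, so these counts cannot be set against the shares above. In CD27+ CMP against GMP the count was also 2 with the mean of probe sets, 0 among genes spanning at least 0.5 log2, 2 with a replicate block and 4 with every probe set on its own. For the difference between the contrasts it was 1 with quantile normalization (Mrpl51, -0.61, adjusted p = 0.011). Leaving out 1 array gave 19 to 37 called members between the CMP fractions, 17 to 38 between GMP and MEP, 1 to 2 between CD27+ CMP and GMP, 0 to 0 between CD27- CMP and MEP, 23 to 44 between CD27+ CMP and MEP, 12 to 32 between CD27- CMP and GMP and 0 to 1 for the difference between the contrasts. The cause of these changes was not tested, beyond the fewer arrays, and shares of all genes called are not given for these fits. Members whose 6 and 6 arrays did not overlap with the CD27+ side lower, a rule chosen after seeing the data, were counted again. The count was 26 with quantile normalization and with arrays centred on their median, and 36 with the mean of probe sets. Without 1 array it was 32 to 37, but for a given probe set removing an array cannot undo a separation, so this range shows no robustness. The share over all genes, 10.1% in the main values, is not given for these settings.

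Of 551 values of the named members under the alternatives, 531 kept their direction and side of the threshold, 20 kept their direction and no longer passed, and 0 reversed. Most of the 20 were Mrpl44 and Mrpl33 in the comparisons that cross the pairs. The members were named for passing with the largest differences, and the alternatives reuse the same arrays. Such agreement was thus largely built in and does not cover members nearer the threshold. Some fits on the 6 arrays of the 2 groups alone were added after seeing the data. There GMP against MEP gave 49 members with the replicate block (47 lower, 2 higher, 35 of them among the 36) and 26 without it. Over all genes 29.7% were called with that block and 21% without it, so the count rose over the whole array too. CD27+ CMP against GMP gave 0 members in limma with the block and 0 without it (8 and 3 at an unadjusted p under 0.05). Over all genes 2.04% and 2.62% were called. With the replicate block over all 12 arrays the counts were 34 between the CMP fractions, 32 between GMP and MEP, 0 between CD27- CMP and MEP, 43 between CD27+ CMP and MEP, 34 between CD27- CMP and GMP and 0 for the difference. Centring hides the distance of a probe set from background, so a flat probe set says nothing of the level of its gene, and a difference next to background may be understated.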
